A study of Mus musculus and synthetic construct with 30 samples.

Results

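The genes described here are 10 transcription factors of naive pluripotency: *Pou5f1*, *Nanog*, *Esrrb*, *Tfcp2l1*, *Klf4*, *Klf5*, *Tbx3*, *Nr0b1*, *Nr5a2* and *Zfp42*. They were chosen by name, and each matched 1 of the 26759 genes quantified. All 10 passed the filter on low counts, which kept 17459 genes. RNA-seq was performed on mice in which most of the gene body of the long noncoding RNA *Peril* was replaced by a *LacZ* reporter, and on their wild-type (WT) counterparts. Each knockout (KO) and WT group was sampled in embryonic stem cells (mESC), in the E14.5 kidney and in the E14.5 ganglionic eminence with olfactory bulb (GE/OB, ventral forebrain). The *Peril* locus lies near *Sox2*, a partner of these factors, and the comparison asks how their levels stood once most of the locus was removed.

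The strain background was 129S6 with C57BL/6J, and the KO groups carried the *Peril* deletion with its *LacZ* reporter and no neomycin cassette. The mESC were male. The WT mESC group held 3 wells of 1 clone and the KO group 3 wells of another clone, grown in 2i medium on feeder fibroblasts. The wells of the 2 clones were collected at different passages, so clone, passage and genotype cannot be told apart in mESC, and the wells are not separate animals or clones. The kidneys came from 3 WT embryos (2 male, 1 female) and 3 KO embryos (1 male, 2 female) of litter 43. The GE/OB samples came from 2 WT embryos, both male, and 2 KO embryos, both female, of litter 46, so that genotype cannot be told apart from sex in GE/OB.

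Naive pluripotency is the state of the cells of the preimplantation epiblast, from which mESC are derived. A network of transcription factors holds mESC in this state by binding each other's regulatory regions, and it receives signals from the LIF receptor through STAT3 and, in 2i medium, from the block of GSK3 and of the MEK kinases. Several of these factors have separate roles later, in epithelia, limbs, adrenal glands and gonads, while *Pou5f1*, *Nanog* and *Zfp42* are silent in most differentiated cells.

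RefSeq promoters (GRCm38.p6, 250 bases before to 50 after a start site) were at hand for 8 of the 10 genes, in 12 windows. The windows were searched on both strands for ATGCAAA, 7 letters of the octamer bound by POU factors, and for the SOX letters CATTGT. These 7 letters are called the octamer here. Also searched was the composite of both, in which CATTGT is followed by 1 further base and then the octamer. The composite contains the other 2 motifs by construction. The *Nanog* promoter is shown because it held this composite, and the *Zfp42* promoter because it held an octamer together with GGGTGTGG, letters bound by KLF factors.
Nanog, chr6:122707239-122707538, plus strand: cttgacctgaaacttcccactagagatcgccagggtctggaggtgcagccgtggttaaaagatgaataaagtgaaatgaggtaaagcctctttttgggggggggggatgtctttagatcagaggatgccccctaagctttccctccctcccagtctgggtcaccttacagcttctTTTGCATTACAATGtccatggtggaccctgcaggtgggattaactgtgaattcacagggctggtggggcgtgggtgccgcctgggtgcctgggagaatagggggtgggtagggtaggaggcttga
Zfp42, chr8:43306960-43307259, minus strand: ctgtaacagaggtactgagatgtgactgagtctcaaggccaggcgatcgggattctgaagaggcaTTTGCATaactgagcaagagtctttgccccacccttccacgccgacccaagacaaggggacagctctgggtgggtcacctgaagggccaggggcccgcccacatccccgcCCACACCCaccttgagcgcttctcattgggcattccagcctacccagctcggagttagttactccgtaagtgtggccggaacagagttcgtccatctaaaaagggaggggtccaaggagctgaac
Capitals mark the matches, all of which lie on the strand opposite to the gene. In *Nanog* the composite starts at -75 from the first start site, outside any gene of GENCODE vM21. Only 2 of 32851 windows of all genes (0.00609%) held the composite, and both were overlapping windows of *Nanog*. In *Zfp42* the octamer starts at -185 and the KLF letters at -75, also outside annotated genes.

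The octamer alone was present in 4.63% of all windows, the SOX letters in 12.6% and the KLF letters in 3.56%. SOX letters without an octamer were found in *Esrrb*, within an exon, and in *Pou5f1*, within the gene but outside its exons. None of the 12 windows held AAGGTCA, bound by ESRRB and NR5A2 (4.72% of all windows), the T-box letters AGGTGTGA (1.28%), the TCF letters CTTTGATC (0.938%) or the STAT letters TTCCNGGAA (1.15%). A match describes the letters only.

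The libraries held 17544707 to 45924887 expected counts. *LacZ* checked the labels in mESC, with 69.6 to 73.67 TPM (a level scaled to transcript length and to the library total) in KO wells against 0.02 to 0.07 in WT wells, and in GE/OB, with 44.43 and 45.79 in KO against 0.1 and 0 in WT. In the kidney *LacZ* stayed at 0.09 to 0.47 TPM in WT and 0.08 to 0.15 TPM in KO, and *Peril* was at 0 in all 6 libraries. The *LacZ* level was the lower in KO, opposite to mESC and GE/OB, and was not called (log2 fold change -1.50 ± 0.40, edgeR adjusted p = 0.246). Neither gene therefore checks the kidney labels. *Peril* itself was low in mESC, at 0.33 to 0.57 TPM in WT and 0.16 to 0.24 in KO. A list of 6 other mESC genes (*Dppa4*, *Dppa5a*, *L1td1*, *Utf1*, *Tdgf1* and *Fgf4*) summed to 6815 to 7141 TPM in WT wells, to 6445 to 6591 TPM in KO wells, without overlap, and to at most 3.28 TPM in the tissues. Of these, *Dppa4* (log2 fold change -0.34, edgeR adjusted p = 0.0474), *L1td1* (-0.36, adjusted p = 0.0056) and *Tdgf1* (-0.33, adjusted p = 0.0088) were called lower in KO mESC. In the same comparison 4.59% of all tested genes were called lower. Kidney markers summed to 389 to 486 TPM in the kidney, and GE/OB markers to 1024 to 1105 TPM in GE/OB. In bulk samples such as these, fewer cells of a type and less RNA per cell cannot be told apart.

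In WT mESC all 10 factors ranked high among the genes measured. *Pou5f1* ranked 123rd of 26759 genes by mean TPM, *Nanog* 257th and *Esrrb* 382nd. The lowest, *Nr5a2*, ranked 3257th. On the TPM scale the order of the levels in WT mESC was *Pou5f1*, *Nanog*, *Esrrb*, *Tfcp2l1*, *Klf4*, *Zfp42*, *Nr0b1*, *Klf5*, *Tbx3* and *Nr5a2*, and no 2 neighbours in this order overlapped between wells. In KO mESC the order was the same except that *Klf5* stood above *Zfp42* and *Nr0b1*. The lowest KO well of *Klf5* (111.72 TPM) lay barely above the highest KO well of *Zfp42* (111.62 TPM). The 10 genes together made up 3044 to 3064 TPM in WT wells and 3172 to 3209 TPM in KO wells.

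**Figure D1:**
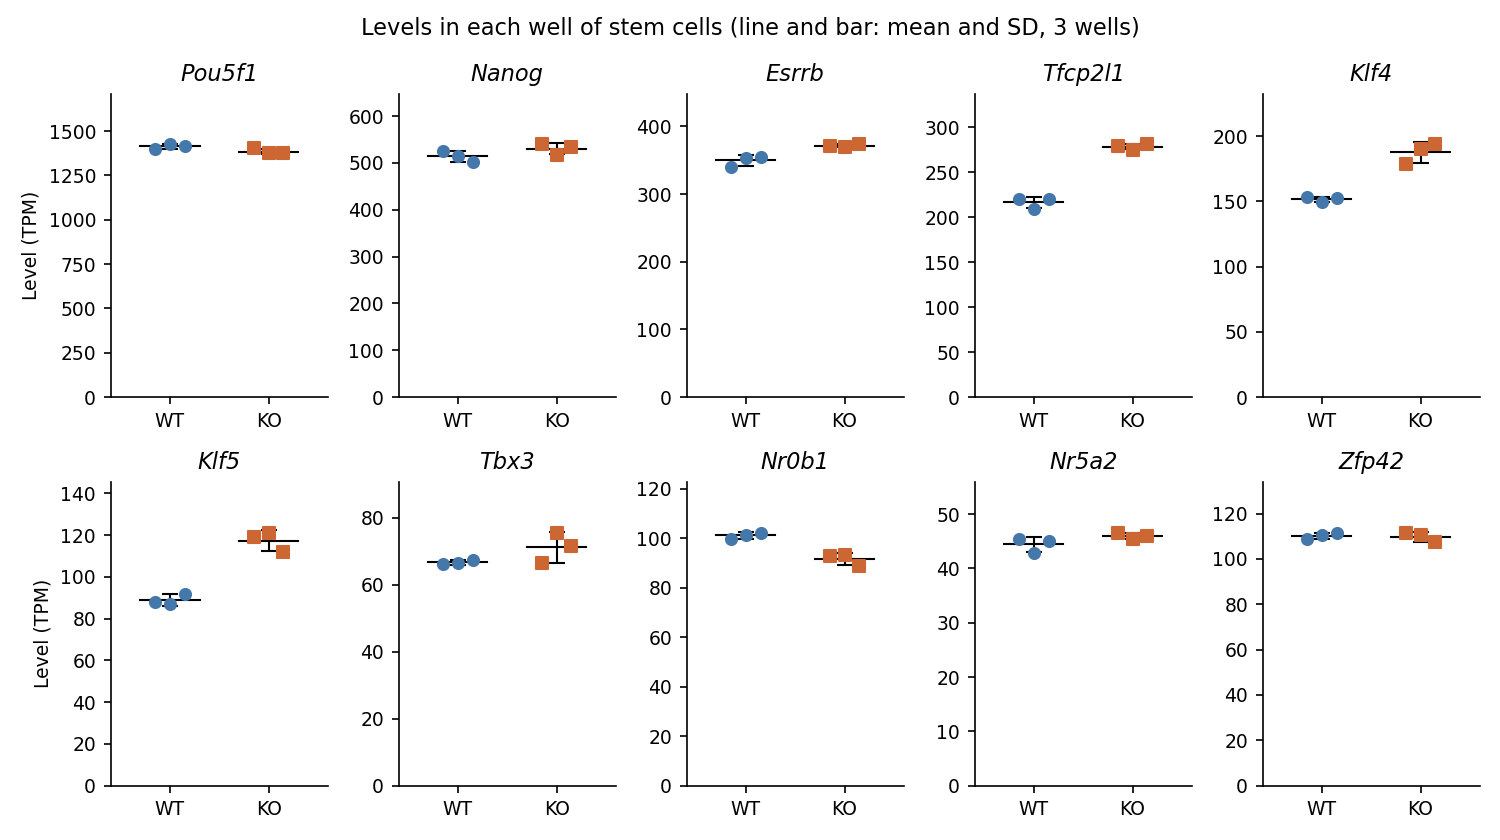
TPM of each factor in the 3 WT wells (blue circles) and 3 KO wells (orange squares) of mESC, with the mean and SD in black and each axis starting at 0. The KO wells lie above all WT wells for *Klf4*, *Klf5*, *Tfcp2l1*, *Esrrb* and *Nr5a2*, and below all of them for *Nr0b1*.

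Removal of the *Peril* gene body was accompanied by a called change in 1 of the 10 factors in mESC. *Klf5* was higher in KO wells by 0.33 ± 0.09 (SE) on the log2 scale (1.26-fold, edgeR adjusted p = 0.0415). Across all tested genes 6.86% were called in this comparison, 2.27% higher and 4.59% lower in KO, so that 1 of 10 is close to the background. At an unadjusted p under 0.05 stood 2 factors, *Klf5* and *Nr0b1*, against 21.2% of all genes. The median log2 fold change was -0.01 over the 10 factors and -0.03 over all tested genes.

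The *Klf5* call depended on the libraries and the fit. It was lost when any 1 of the 6 mESC wells was left out (adjusted p between 0.0736 and 0.159 in edgeR) and when wells with the same number were treated as pairs (adjusted p = 0.0882, with 5.24% of all genes called), while its log2 fold change stayed between 0.29 and 0.38. DESeq2 called *Klf5* and, lower in KO, *Nr0b1*, and it called 9.42% of all genes. When the mESC libraries were fitted on their own, so that the spread came from wells of a clone only, 4 factors passed, and so did 25.2% of the genes tested in that fit.

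**Figure D2:**
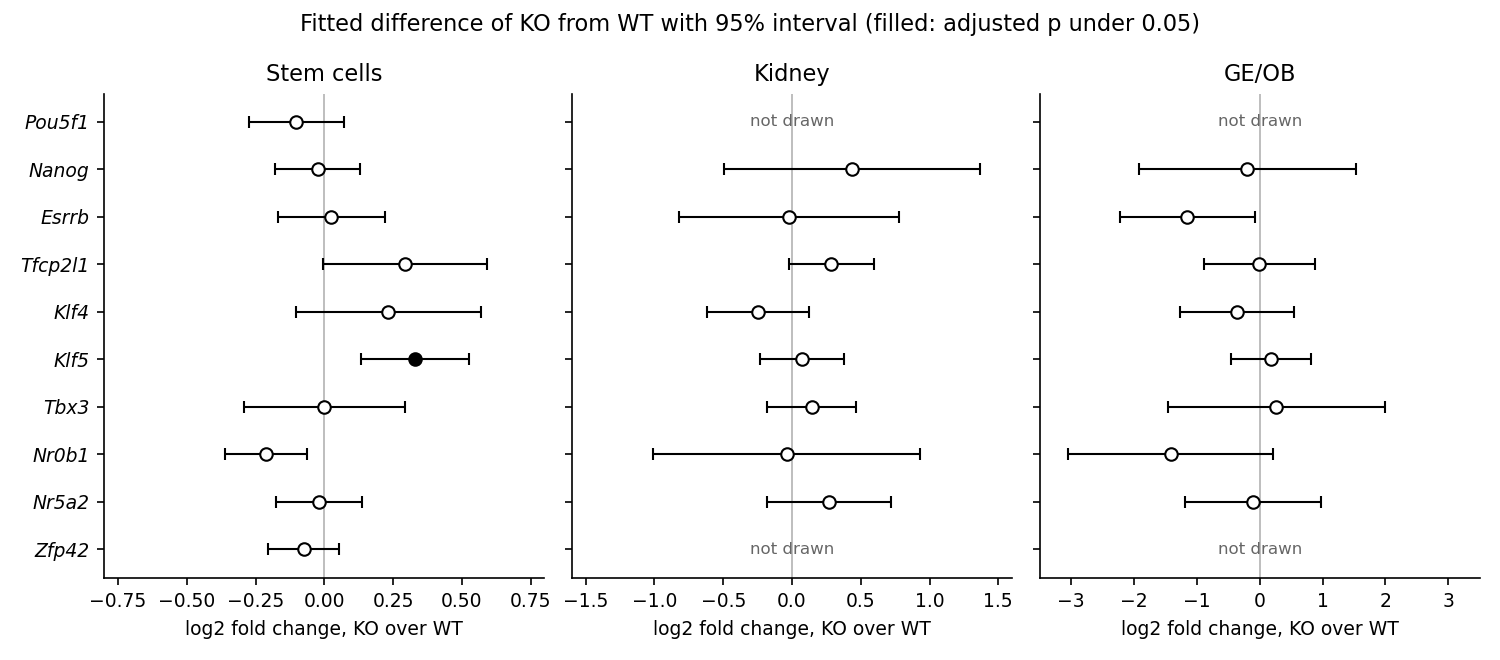
Fitted log2 fold change of KO over WT with its 95% interval for each factor in mESC, kidney and GE/OB, with filled points at an adjusted p under 0.05 and a separate scale for each tissue. *Klf5* in mESC is the filled point, at 0.33, and *Pou5f1* and *Zfp42* are not drawn in the tissues, where their counts were too few.

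*Pou5f1* encodes OCT4, the POU factor without which the pluripotent epiblast does not form. Its level was 1398.56, 1426.24 and 1416.81 TPM in WT wells and 1403.5, 1374.67 and 1375.48 TPM in KO wells. The groups overlapped, and the fitted difference was -0.10 ± 0.08 (SE) on the log2 scale (edgeR adjusted p = 0.522, 95% interval -0.27 to 0.07). *Nanog*, the homeobox factor that lets mESC renew without LIF when it is in excess, was measured at 524.58, 514.18 and 502.32 TPM in WT and 540.09, 517.17 and 532.94 TPM in KO. These ranges overlapped as well, with a log2 fold change of -0.02 ± 0.07 (adjusted p = 0.918, 95% interval -0.18 to 0.13). *Nanog* counts were not whole numbers in any of the 16 libraries, which marks reads shared with other genes, so part of its level is uncertain.

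*Zfp42* (REX1), a zinc finger gene widely used as a marker of the naive state, stood at 108.82 to 111.36 TPM in WT and 107.29 to 111.62 TPM in KO wells. Its log2 fold change was -0.08 ± 0.06 (adjusted p = 0.516). *Sox2*, the partner of OCT4 on composite motifs like the one shown in *Nanog*, was also not called, at 259.4 to 267.81 TPM in WT and 250.1 to 258.52 TPM in KO wells (log2 fold change -0.12 ± 0.18, adjusted p = 0.767). Its KO wells all lay below its WT wells in TPM, a pattern that 13.0% of all tested genes showed. The SE came from the fit over all tissues, whereas the coefficients of variation between mESC wells were 1.68% in WT and 1.75% in KO. The 95% intervals of *Pou5f1*, *Nanog*, *Zfp42* and *Sox2* all included 0, and the lowest end among them was -0.50 on the log2 scale, for *Sox2*.

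*Klf4* and *Klf5* are related zinc finger factors that act downstream of LIF and bind overlapping sites. *Klf5* was measured at 87.91, 86.9 and 91.98 TPM in WT wells and at 119.01, 121.21 and 111.72 TPM in KO wells. Every KO well was above every WT well, and the mean TPM was 31.92% higher in KO. *Klf4* stood at 153.14, 149.42 and 152.23 TPM in WT and at 178.51, 190.15 and 193.79 TPM in KO, again without overlap and with a mean 23.67% higher. The fit over all tissues did not call *Klf4* (log2 fold change 0.23 ± 0.16, adjusted p = 0.437), whereas the fit on mESC alone did (0.27, adjusted p = 3.98e-05). The fit on mESC alone measured spread between wells of a clone only, and it called 25.2% of its genes.

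*Tfcp2l1*, a grainyhead-like factor downstream of LIF and of the GSK3 block, behaved in the same way. Its level was 219.75, 209.22 and 220.48 TPM in WT wells and 279.49, 274.72 and 281.1 TPM in KO wells, 28.62% higher in the mean. The groups did not overlap. The fit over all tissues gave a log2 fold change of 0.29 ± 0.14 that missed the threshold (adjusted p = 0.245). The fit on mESC alone, which called 25.2% of its genes, gave 0.33 (adjusted p = 5.35e-06). That p measures spread between wells of a clone only. The wells of each group differed little for *Tfcp2l1*, with coefficients of variation of 2.91% in WT and 1.19% in KO.

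*Tbx3*, a T-box factor that also acts downstream of LIF and PI3 kinase, showed no such separation. It ranged from 66.04 to 67.35 TPM in WT and from 66.34 to 75.54 TPM in KO, with a fitted log2 fold change of 0.00 ± 0.14 (adjusted p = 1.0, 95% interval -0.29 to 0.29).

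None of the 3 nuclear receptors was called by the edgeR fit over all tissues. *Nr0b1* (DAX1), an orphan receptor that binds OCT4 and NR5A2 and restrains their activity, was measured at 99.81, 101.41 and 102.35 TPM in WT wells and at 92.76, 93.31 and 88.86 TPM in KO wells. All KO wells lay below all WT wells, with a mean 9.43% lower. The edgeR fit over all tissues gave a log2 fold change of -0.21 ± 0.07 (adjusted p = 0.0806). DESeq2, which called 9.42% of all genes, gave -0.20 (adjusted p = 0.0282). The edgeR fit on mESC alone, which called 25.2% of its genes, gave -0.17 (adjusted p = 0.00437). That last p measures spread between wells of a clone only.

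*Esrrb*, an orphan receptor whose gene is repressed by TCF7L1 and freed by the GSK3 block, stood at 340.36, 354.0 and 354.54 TPM in WT and at 371.2, 368.86 and 373.81 TPM in KO. Its wells did not overlap in TPM, but the log2 fold change was 0.03 ± 0.09 (adjusted p = 0.939). *Nr5a2* (LRH1), which can bind the regulatory regions of *Pou5f1*, was at 42.88 to 45.41 TPM in WT and 45.5 to 46.61 TPM in KO, with a fold change of -0.02 ± 0.07 on the log2 scale (adjusted p = 0.947). For *Esrrb* and *Nr5a2* the separation in TPM was lost in counts scaled by TMM factors, and for *Nr5a2* the sign turned. *Nanog* and *Tbx3*, which overlapped in TPM, were also higher in KO by mean TPM (3.19% and 6.81%). Their fitted log2 fold changes were -0.02 and 0.00.

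The 2 scales differed for all genes. Over 11875 genes with a mean of at least 1 TPM in both groups, the median log2 ratio of KO to WT mESC was 0.03 in TPM and -0.04 in TMM-scaled CPM (counts divided by the scaled library total). In TPM all KO wells were above all WT wells for 5 factors and for 17.9% of all tested genes, and below for 1 factor and 13.0%. In TMM-scaled counts they were above for 3 factors (*Klf4*, *Klf5* and *Tfcp2l1*) and 12.3% of genes, and below for 1 factor (*Nr0b1*) and 21.4%. *Klf4*, *Klf5*, *Tfcp2l1* and *Nr0b1* therefore did not overlap on either scale.

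**Figure D3:**
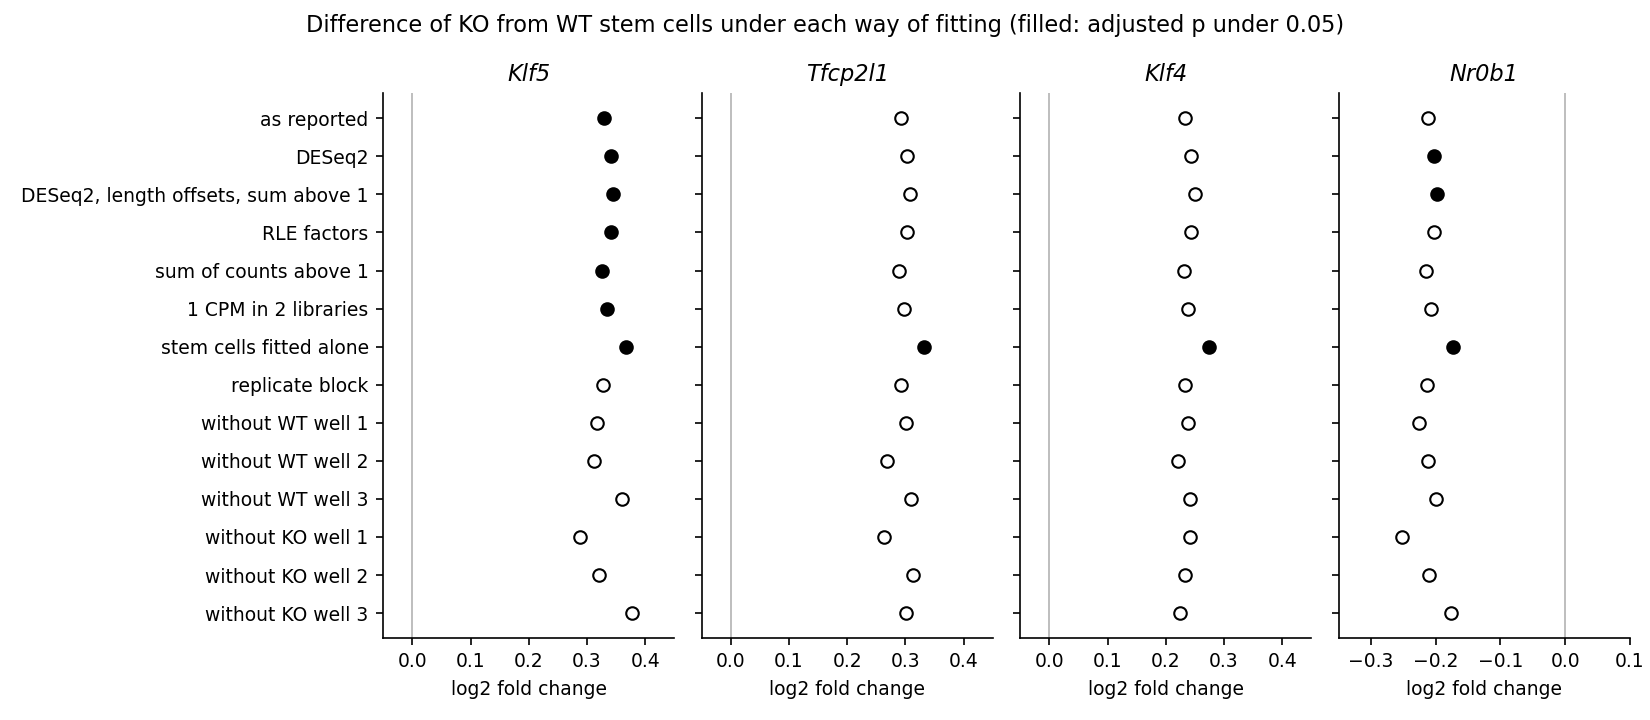
log2 fold change of KO over WT mESC for *Klf5*, *Tfcp2l1*, *Klf4* and *Nr0b1* under each way of fitting, with filled points at an adjusted p under 0.05. The values stay on the same side of 0 throughout, whereas the points that pass the threshold change from fit to fit, and each of the 4 genes passes when mESC are fitted alone.

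Markers of other cells that mESC cultures can hold were low. A list of 12 fibroblast genes, for the feeder cells, summed to 3.78 to 4.65 TPM in WT and 2.01 to 2.9 TPM in KO wells, with 1 of 12 genes at 1 TPM or more and *Twist2* at 0. Primitive endoderm genes summed to 9.46 to 9.7 TPM in WT and 10.2 to 11.3 TPM in KO, and 2 of 6 reached 1 TPM. Trophoblast genes summed to 6.59 to 7.66 TPM in WT and 5.05 to 5.56 TPM in KO, and 2 of 6 reached 1 TPM. Genes of the two-cell-like state summed to at most 0.34 TPM in any well, with none of 5 at 1 TPM. The sums of the first 3 lists did not overlap between genotypes, and their part in the differences of *Klf4*, *Klf5*, *Tfcp2l1* and *Nr0b1* was not tested.

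Among 14 further genes of the pluripotency network, edgeR called 2 higher and 3 lower in KO mESC, where it called 2.27% and 4.59% of all tested genes. DESeq2 called 2 higher and 4 lower, and 9.42% of all genes in either direction. The list was chosen with earlier results of these data known, so its counts cannot be weighed against these shares. *Gbx2*, a homeobox gene downstream of LIF, rose from 1.73 ± 0.04 to 3.26 ± 0.08 TPM (mean ± SD, n = 3 wells, log2 fold change 0.85, edgeR adjusted p = 0.00265), and *Tcl1*, a cofactor of AKT, rose by 0.33 (adjusted p = 0.0107). *Tdgf1*, a coreceptor of NODAL, fell by 0.33 on the log2 scale (adjusted p = 0.0088), and so did *Zfp281*, a zinc finger repressor, by 0.26 (adjusted p = 0.0109). *Lin28a*, an RNA-binding protein gene that was added to the named genes after its value was seen, fell by 0.34 (adjusted p = 0.0233). The median log2 fold change over the 14 genes was -0.07.

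The signalling lists that feed the network, also chosen with earlier results of these data known, gave mixed counts. Among all tested genes edgeR called 2.27% higher and 4.59% lower in KO mESC, and DESeq2 called 9.42% in either direction. In edgeR none of the 10 genes of the LIF and STAT3 pathway was called, and DESeq2 called 1. Of these 10, 4 had an unadjusted p under 0.05 in edgeR, all higher in KO, a p that 21.2% of all tested genes had. None of the 9 BMP and ID genes was called by edgeR, and DESeq2 called 1. At an unadjusted p under 0.05 in edgeR stood 2 of these 9, both higher in KO. Of 12 genes of the GSK3 and TCF pathway, 2 were higher (*Sp5*, log2 fold change 1.63, adjusted p = 0.00413, and *Cdx1*, 1.14, adjusted p = 0.0139) and 2 were lower (*Lef1*, -1.37, adjusted p = 4.46e-05, and *Tcf7*, -0.29, adjusted p = 0.0352). All 4 are known targets or effectors of WNT signalling. Of 15 genes of the FGF and ERK pathway, 3 were higher, namely the ETS factor *Etv4* (1.84, adjusted p = 1.47e-07) and the feedback inhibitors *Spry4* (1.43, adjusted p = 0.000308) and *Spry2* (0.28, adjusted p = 0.0455), and none was called lower. DESeq2 called 3 higher and 1 lower of these 15, and 3 higher and 2 lower of the GSK3 and TCF genes.

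Genes of the primed state, which follows the naive state in the embryo, were given by a list of 11, of which 9 were tested. Of these 3 were called lower in KO mESC and none higher by edgeR and by DESeq2, where edgeR called 4.59% of all tested genes lower and 2.27% higher. As the list was chosen with earlier results of these data known, its count cannot be weighed against those shares. *Otx2*, the homeobox factor that directs OCT4 to new sites on leaving the naive state, fell from 58.9 ± 0.63 to 29.9 ± 2.31 TPM (mean ± SD, n = 3 wells, log2 fold change -1.04, edgeR adjusted p = 1.51e-05). The DNA methyltransferase genes *Dnmt3a* and *Dnmt3b* fell by 0.96 (adjusted p = 2.58e-08) and by 0.49 (adjusted p = 2.07e-05) on the log2 scale. Beside these changes, *Pou5f1*, *Nanog*, *Zfp42* and *Tbx3*, as given above, overlapped between genotypes in TPM. *Klf4*, *Klf5* and *Tfcp2l1* were higher and *Nr0b1* lower in KO without overlap in TPM and in TMM-scaled CPM. *Esrrb* and *Nr5a2* were higher without overlap in TPM only. Of all tested genes, 17.9% were higher and 13.0% lower without overlap in TPM, and 12.3% and 21.4% in TMM-scaled CPM.

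The factors fell into separate patterns outside mESC. All 10 were higher in WT mESC than in WT kidney and than in WT GE/OB in edgeR, where 40.2% and 41.3% of all tested genes were called higher. The same held in each alternative fit and without any 1 library. The lowest fold against the kidney was that of *Tbx3*, at 2.90 ± 0.15 (SE) on the log2 scale.

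**Figure D4:**
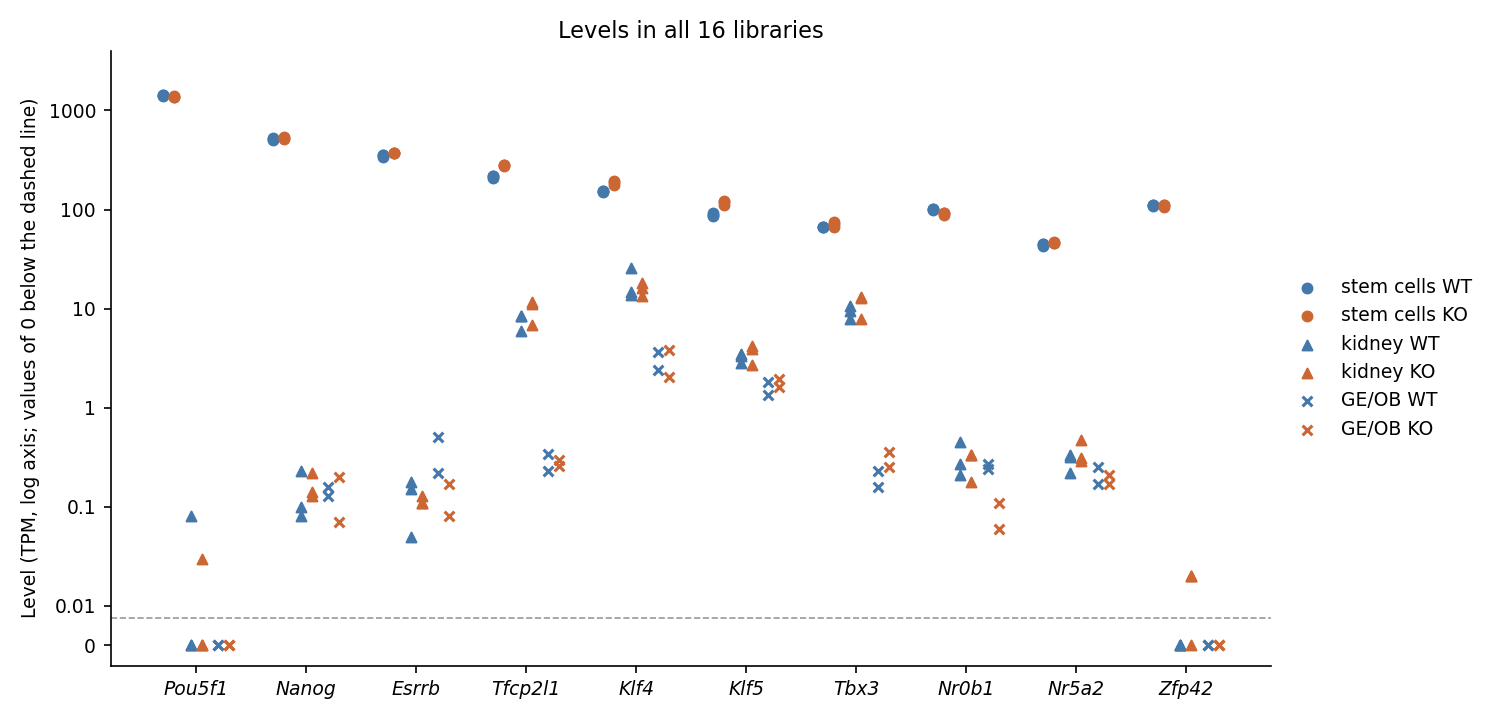
TPM of each factor in all 16 libraries on a log axis, with values of 0 set below the dashed line, circles for mESC, triangles for kidney and crosses for GE/OB, blue for WT and orange for KO. *Klf4*, *Klf5*, *Tfcp2l1* and *Tbx3* keep more than 1 TPM in every kidney library, *Klf4* and *Klf5* do so in GE/OB, and the other factors stay below 1 TPM in both tissues.

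*Pou5f1* and *Zfp42* were at or next to 0 in both tissues. *Pou5f1* had 2 counts in 1 WT kidney library, 1 count in 1 KO kidney library and 0 in the other 8 tissue libraries. *Zfp42* had 1 count in each of 2 KO kidney libraries and 0 elsewhere in the tissues. A count of 0 allows 3 counts over a group, so *Pou5f1* was at least 13700-fold higher in WT mESC than in WT GE/OB in CPM, and *Zfp42* at least 1470-fold. Against the WT kidney *Zfp42* was at least 3170-fold higher, and the ratio of *Pou5f1* was 44400 (95% counting interval 12300 to 366000). Such limits and intervals cover counting error only, and no KO to WT ratio is given for either gene in the tissues.

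*Nanog*, *Esrrb*, *Nr0b1* and *Nr5a2* left a few counts in every tissue library. *Nanog* had 3.1 to 14.6 counts per kidney library and 2.02 to 4.09 per GE/OB library, and these counts were shared with other genes in every library, so they cannot be placed at the *Nanog* locus with certainty. *Esrrb* stood at 0.05 to 0.18 TPM in the kidney and 0.08 to 0.51 TPM in GE/OB. *Nr5a2* was higher in WT kidney than in WT GE/OB (log2 fold change 1.09 ± 0.34, edgeR adjusted p = 0.00805), on 62 counts over 3 kidney libraries and 14 over 2 GE/OB libraries, and this call was lost without the library of WT embryo 1 of GE/OB. *Nanog*, *Esrrb* and *Nr0b1* were not called between these tissues.

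*Nr0b1* is also an adrenal and gonadal gene, and both organs lie next to the kidney. It was at 0.18 to 0.45 TPM in the kidney libraries, where a list of 6 adrenal and gonadal genes summed to 1.7 to 2.03 TPM with 1 of 6 at 1 TPM or more. Germ cell genes, which can share factors with mESC, summed to 3.16 to 4.09 TPM in the kidney. Both lists were higher in GE/OB, at 6.13 to 7.16 TPM for the adrenal and gonadal genes and 6.16 to 8.08 TPM for the germ cell genes. The part of these cells in the residual counts was not tested.

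*Tfcp2l1*, *Tbx3*, *Klf4* and *Klf5* were expressed in the kidney at levels that were higher than in GE/OB, as were 40.6% of all tested genes. *Tbx3* was higher in WT kidney by 6.08 ± 0.37 (SE) on the log2 scale, *Tfcp2l1* by 5.38 ± 0.27, *Klf4* by 3.57 ± 0.29 and *Klf5* by 1.65 ± 0.24, with edgeR adjusted p from 1.19e-11 to 7.03e-06. *Tfcp2l1* is known for its role in the collecting ducts, which grow from the ureteric bud, and *Tbx3* for its role in the mesenchyme of the ureter. Ureteric bud genes summed to 118 to 166 TPM in the kidney and to at most 13.4 TPM in GE/OB. The order of the levels in WT kidney was *Klf4*, *Tbx3*, *Tfcp2l1* and *Klf5* on the TPM scale, and *Tbx3* and *Tfcp2l1* overlapped between embryos.

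In GE/OB only *Klf4* and *Klf5* were above 1 TPM, at 2.06 to 3.83 and 1.35 to 1.97 TPM. The effective length that the authors assigned to *Klf4* was 1326 to 2684 bases in GE/OB, against 2777 to 2836 bases in mESC and kidney, and it moved the TPM. In CPM *Klf4* was at 3.33 and 3.58 in WT and 2.68 and 2.63 in KO, whereas in TPM it was at 2.38 and 3.63 in WT and 2.06 and 3.83 in KO. Thus *Klf4* did not overlap between genotypes in CPM, where 11.8% of all genes were lower without overlap after TMM scaling, and did overlap in TPM. For *Klf4* in GE/OB edgeR gave a log2 fold change of -0.36 ± 0.43 (adjusted p = 1.0).

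None of the 10 factors was called between KO and WT kidney, and none had an unadjusted p under 0.05 in edgeR, where 0.223% of all tested genes were called and 7.6% had such a p. DESeq2 called none either. *Tfcp2l1* came nearest, with 8.47, 8.42 and 5.97 TPM in WT embryos 1, 3 and 8 and 11.56, 6.9 and 11.18 TPM in KO embryos 7, 9 and 10. The groups overlapped through KO embryo 9, and the log2 fold change was 0.29 ± 0.15 (edgeR adjusted p = 0.693).

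*Tbx3* followed the same embryos, with 9.38, 10.59 and 7.94 TPM in WT and 13.05, 7.87 and 12.95 TPM in KO. Its log2 fold change was 0.14 ± 0.15 (adjusted p = 0.882). Without KO embryo 9, which had the lowest *Tbx3* of the KO kidneys, it was 0.38 and passed the threshold (edgeR adjusted p = 0.0353). Leaving out any other kidney library called no factor between KO and WT kidney. The share of all genes called without KO embryo 9 is not given here. *Klf4* was at 14.59, 13.8 and 25.72 TPM in WT and at 16.15, 18.15 and 13.55 TPM in KO. WT embryo 8 stood apart for *Klf4*, and without it the log2 fold change turned from -0.25 to 0.10, with neither called. No factor had all KO kidneys above or below all WT kidneys in TPM, a pattern that 14.2% and 2.16% of all genes showed, nor in TMM-scaled CPM, where 4.87% and 5.32% did.

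**Figure D5:**
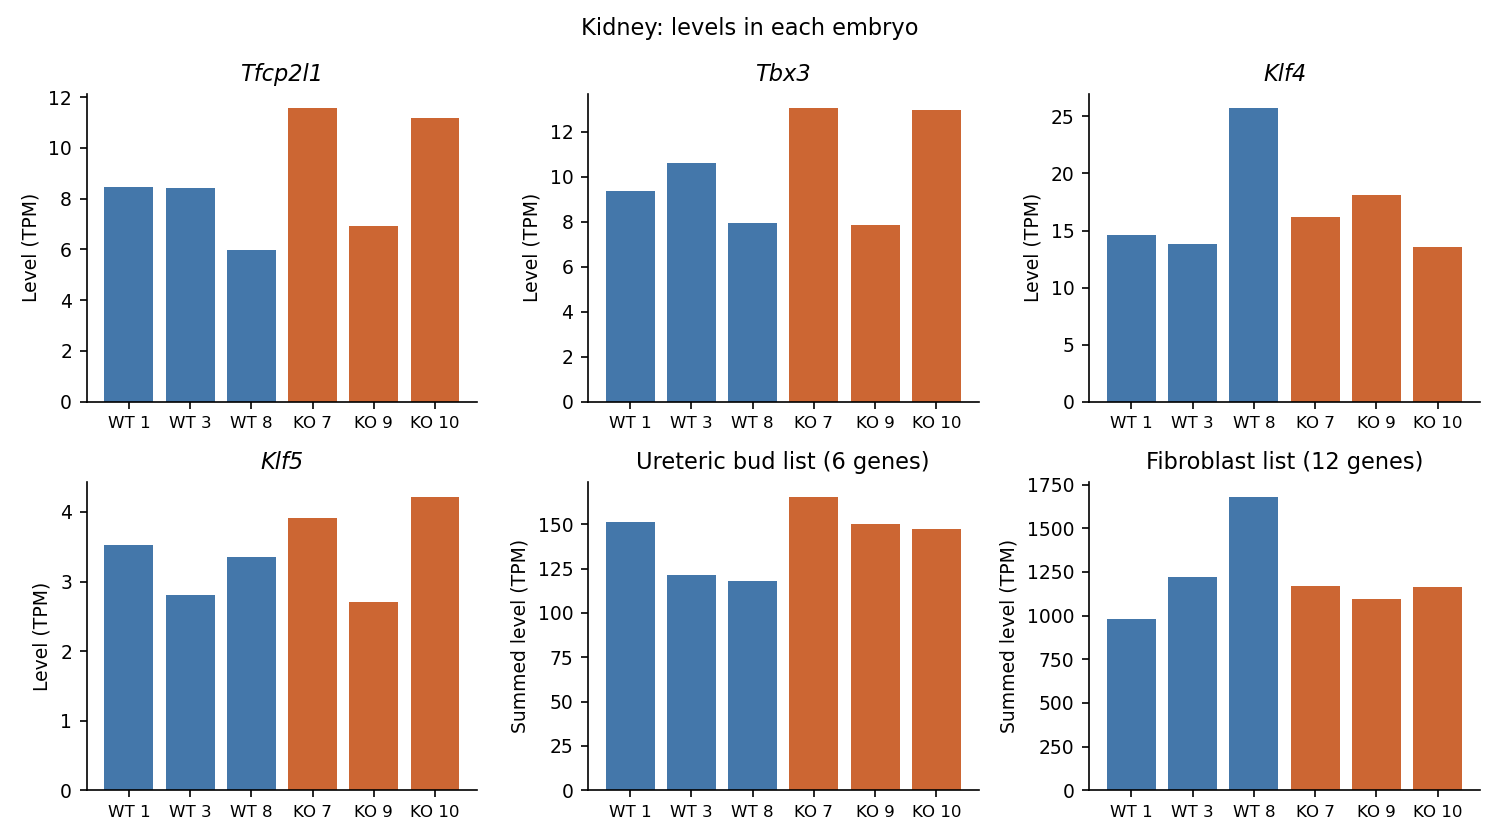
TPM of *Tfcp2l1*, *Tbx3*, *Klf4* and *Klf5* and summed TPM of the ureteric bud and fibroblast lists in each kidney embryo, with WT in blue, KO in orange and axes starting at 0. KO embryos 7 and 10 have the highest *Tfcp2l1* and *Tbx3*, and WT embryo 8 has the highest *Klf4* (25.72 TPM) and fibroblast sum (1681 TPM).

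The marker lists varied among the same embryos. The ureteric bud list summed to 151, 121 and 118 TPM in WT embryos 1, 3 and 8 and to 166, 150 and 147 TPM in KO embryos 7, 9 and 10, with all 6 genes at 1 TPM or more. The distal nephron list summed to 3.46, 2.02 and 1.52 TPM in WT and 3.82, 1.77 and 3.16 TPM in KO, with 1 of 6 genes at 1 TPM or more. In this list KO embryos 7 and 10 were above KO embryo 9, as they were for *Tfcp2l1* and *Tbx3*. Unlike for these 2 genes, WT embryo 1 was above KO embryo 10. In the ureteric bud list KO embryo 9 was above KO embryo 10. The fibroblast list, which renal stroma also expresses, summed to 1681 TPM in WT embryo 8 and to 982 to 1222 TPM in the other 5. The part of these lists in the *Tfcp2l1*, *Tbx3* and *Klf4* levels was not tested.

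In GE/OB none of the 10 factors was called between KO and WT by edgeR or DESeq2, where edgeR called 0.063% of all genes. *Esrrb* had an unadjusted p under 0.05, as did 3.01% of all genes. It was at 0.51 and 0.22 TPM in WT and 0.17 and 0.08 TPM in KO, on 13, 8, 11 and 2 counts, and the log2 fold change of -1.15 ± 0.51 did not pass (edgeR adjusted p = 1.0). *Nr0b1*, on 4 and 4 counts in WT and 3 and 1 in KO, also had both KO libraries below both WT libraries in TPM, as did 8.81% of all genes, and *Tbx3* had both KO libraries above, as did 20.1%. For *Tbx3* the libraries overlapped in CPM. None of these differences passed the test.

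The KO effects in mESC were compared with those in the tissues as contrasts of the same fit. No factor differed between mESC and kidney (2.24% of all genes did) or between mESC and GE/OB (1.08%) in edgeR. At an unadjusted p under 0.05 stood no factor against the kidney (15.5% of all genes) and *Esrrb* against GE/OB (10.6% of all genes). DESeq2 also called no factor in either contrast. The KO effect on *Klf5* in mESC exceeded that in the kidney by 0.26 ± 0.17 on the log2 scale (adjusted p = 0.524, 95% interval -0.11 to 0.62), and that on *Klf4* by 0.48 ± 0.24 (adjusted p = 0.344, 95% interval -0.02 to 0.98). For *Tfcp2l1* the effects in mESC and kidney were 0.29 each, with a difference of 0.01 ± 0.20.

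Genes with the most similar pattern were found for each factor by the mean absolute difference of log2(TPM + 1), centred per gene, over the 16 libraries. The nearest to *Nanog* was *Tdh* (difference 0.23), the threonine dehydrogenase gene typical of mESC, and the nearest to *Pou5f1* was *Tdgf1* (0.49). The nearest to *Esrrb* was *Nanog* (0.26), to *Zfp42* *Gdf3* (0.06), to *Nr0b1* *Mageb16* (0.12) and to *Nr5a2* *Gm17067* (0.08). These 6 factors were next to genes with almost no level in the tissues.

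The factors that the kidney keeps had other neighbours. *Tbx3* was nearest to *St14* (0.16), a serine protease gene of epithelia, *Tfcp2l1* to *Hspb1* (0.21), a small heat shock protein gene, *Klf4* to *Gjb5* (0.23), a connexin gene, and *Klf5* to *Klf9* (0.15), a further KLF gene. *St14* was at 49.9 and 63.3 TPM in WT and KO mESC, 6.88 and 9.18 in the kidney and 0.29 and 0.12 in GE/OB (group means). *Klf9* was at 60.3, 1.66 and 0.60 TPM in WT mESC, kidney and GE/OB and at 59.9 TPM in KO mESC, where *Klf5* was higher than in WT. The measure rests on the differences between tissues, and with a pseudocount of 0.1 in place of 1 only 4 of the 20 nearest genes were the same.

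By position, the 10 genes lie on 9 chromosomes, none of them on chromosome 3, which holds *Sox2*. In GENCODE vM21 coordinates (mm10) *Klf5* is at chr14:99298691-99315036 on the plus strand, *Klf4* at chr4:55527143-55532466 on the minus strand and *Tfcp2l1* at chr1:118627945-118685168 on the plus strand. *Nr0b1* is at chrX:86191764-86195947 on the plus strand.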

How the data were processed

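Poly(A) RNA-seq of 16 libraries was analysed. Reads were aligned by the authors to mm10 and assigned to genes by RSEM, and the deposited values are expected counts, levels in TPM and the effective length of each gene. The expected counts were rounded. The model was fitted in edgeR 4.0.16 (R 4.3.3) by the quasi-likelihood test, after filterByExpr and TMM scaling, over all libraries at once with a coefficient for each tissue and genotype, so that all tissues share 1 estimate of the spread. The 17459 p-values of a comparison were adjusted after Benjamini and Hochberg and called under 0.05. The SE was taken as the absolute log2 fold change over the square root of F, and 95% intervals were made from it with the t quantile at the degrees of freedom of the test, or widened to its p where edgeR had raised that p above the one from F. Counts that were not whole, from reads shared between genes, concerned *Nanog* in 16 libraries, *Pou5f1* in 6, *Tfcp2l1* in 5 and *Tbx3* in 2.

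The factors and gene lists were chosen with earlier results of these data known. All 10 factors are named, with *Sox2*, up to 4 called genes with the smallest p in mESC from each list and up to 2 genes nearest in pattern to each factor. Alternatives were DESeq2 1.42.0, DESeq2 with length offsets, RLE factors, a filter at 1 CPM in 2 libraries or at counts that sum to above 1, each tissue alone, sex in the kidney, a replicate block in mESC, an adjusted p under 0.01 and each library left out. The fit was tested on simulated data. Whole brain, reporter assay and Hi-C data were not used here. Tables and figures were made with Python 3.11.15, pandas 2.3.3 and matplotlib 3.10.9.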

Additional observations from a re-analysis of the deposited data

Results flagged for a closer look

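No factor differed in its KO effect between mESC and a tissue, but genes of the related lists did, by the contrast of the 2 KO effects in edgeR. Against the kidney, the log2 difference (KO effect in mESC minus KO effect in kidney) was 1.80 for *Etv4* (adjusted p = 7.06e-06), 1.61 for *Gbx2* (0.0127) and 1.38 for *Spry4* (0.00553), where the effect in mESC was the higher. It was -1.02 for *Dnmt3a* (1.03e-06), -0.60 for *Dnmt3b* (0.000502) and -1.54 for *Lef1* (0.000534), where the effect in mESC was the lower. Against GE/OB, the log2 difference was 1.68 for *Etv4* (adjusted p = 0.00216), -1.08 for *Dnmt3a* (2.53e-06), -1.05 for *Otx2* (0.00559) and -1.44 for *Lef1* (0.00682). Clone and passage were not separated from genotype in mESC, and their part in these differences was not tested.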

How the results depend on the processing

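The count of factors called between KO and WT mESC (1) was 0 at an adjusted p under 0.01 and 0 with the replicate block, 2 with DESeq2 and with DESeq2 and length offsets, 4 with tissues fitted on their own, and 0 without any 1 of the wells. All genes called in mESC (1198) were 530 at 0.01 and 3561 with tissues fitted on their own, and 596 to 1435 without 1 library. Called genes of the related lists (15) were 28 with tissues fitted on their own. Without 1 library, factors called were 0 to 1 between KO and WT kidney and 0 to 1 in the contrast of mESC and kidney (*Tbx3*, without KO embryo 9). With tissues fitted on their own, 1 factor (*Klf4*) was called in the contrast of mESC and GE/OB. The cause was not tested.

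Uncalled log2 fold changes near 0 turned sign. In mESC these were *Nanog* (0.016 fitted alone, -0.067 to 0.0061 without 1 library), *Esrrb* (-0.0086 to 0.059), *Nr5a2* (0.021 fitted alone, -0.057 to 0.0011) and *Tbx3* (0.011 with DESeq2, 0.039 with length offsets, 0.011 with RLE factors, 0.0054 at 1 CPM, 0.040 fitted alone, 0.00 with the block, -0.014 to 0.019 without 1 library). In the kidney they were *Esrrb* (0.28 with sex, -0.44 to 0.27 without 1 library), *Klf4* (-0.41 to 0.10), *Klf5* (-0.089 to 0.25), *Tbx3* (-0.0099 to 0.38), *Nr0b1* (-0.31 to 0.27) and *Nr5a2* (-0.015 to 0.40). In GE/OB they were *Nanog* (-1.02 to 0.56), *Klf5* (-0.033 to 0.41), *Tfcp2l1* (0.0042 at a sum above 1, -0.25 to 0.32) and *Nr5a2* (-0.36 to 0.18).

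Deviations of wells with the same number were hardly correlated in mESC (0.0055, 0.016 and 0.045, against -0.0272 to 0.01 for wells with different numbers). Whether wells with the same number were handled together cannot be told from these correlations. The replicate block called 914 genes in place of 1198 and gave *Klf5* 0.33 (adjusted p = 0.0882), and it changed no other call of a factor. Counts of at most 18 in *Nanog*, *Esrrb* and *Nr0b1* limit the tissues.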

Other observations

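*Sox2*, the partner of these factors, had 42 counts in the kidney library of WT embryo 3 and 1 to 3 counts in the other 5 kidney libraries, and GE/OB marker genes summed to 4.15 TPM in that library and to 1.08 to 2.14 TPM in the other 5. *Pou5f1* was 2 counts in the same library and *Nanog* 3.1, the lowest *Nanog* count among the kidneys. *LacZ* had 28 counts in that library, 25 and 4 in the other WT kidneys and 4 to 15 in the KO kidneys.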
